A study of Saccharomyces cerevisiae with 18 samples.

Results

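The genes described here are the 477 nuclear protein-coding genes of Saccharomyces cerevisiae whose messenger RNAs carried the longest 3' untranslated regions (UTRs). They were selected on measured values. A gene had to have 20 or more reads of capped molecules that cover its whole coding sequence and no other, and the read-weighted median distance from its stop codon to the 3' end of those molecules had to be 250 nt or more. Of 6002 nuclear genes, 4628 had the reads and 477 of these reached the threshold, which is 10.3% of the measured genes. The lengths below that follow from this choice are a description and carry no test.

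The data are TIF-Seq (transcript isoform sequencing) read counts. In TIF-Seq a full-length copy of a capped and polyadenylated RNA is circularised, and the junction of its ends is sequenced, so that the start and the poly(A) site of the same molecule are both known. All libraries came from strain SLS045, a wild-type diploid of the S288c background, harvested in mid-log phase at OD 1. Cells grew in YPAD medium with 1% glucose or in YPGal medium with 1% galactose. Standard libraries numbered 6 in each medium, made from 2 cultures in glucose and from 4 in galactose. A further 2 libraries in each medium were enriched for long mRNAs, using cultures that also gave standard libraries, and 1 library in each medium held molecules without a cap. The authors summed the libraries of each group into 1 column, so the spread between cultures is unknown and differences carry no p-value. Intervals are at 95% and cover the counting error of reads only. Reads can be PCR copies of the same molecule, and where they are, the intervals are too narrow.

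Yeast 3' ends are formed by cleavage and poly(A) addition, guided by an AU-rich efficiency element, an A-rich positioning element and U-rich sequence around the cleavage site. Most genes use a cluster of nearby poly(A) sites rather than a single position. The 3' UTR is the part of the message in which RNA-binding proteins such as the Puf family act on translation, localisation and decay, and a long 3' UTR can bring an mRNA to nonsense-mediated decay.

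The sequence just before the most used poly(A) site shows where these long molecules ended. It is given for 3 of the genes with the longest medians and the 4 with the most reads, as the 30 nt of the coding strand that end at the site in build R64. Capitals mark any of 5 hexamers searched in this window on the coding strand only. These were the efficiency element TATATA, its variants TACATA along with TATGTA, the positioning element AATAAA, and the A run written as AAAAAA.
NUT2 (chromosome XVI, 880058 to 880087, plus strand): gaggaaaaagaatccaactcaaaatctgtc
RIM9 (chromosome XIII, 399290 to 399319, plus strand): agatcaaactaagtcataaataccaactac
SGF29 (chromosome III, 102101 to 102130, minus strand): ataattataattatggtggttgtagtttac
VMA3 (chromosome V, 101475 to 101504, plus strand): ataaaatagaaaatttgaatatcaaggagc
YDR524C-B (chromosome IV, 1489276 to 1489305, minus strand): tatctaatataaaatctaatctaataatag
SED1 (chromosome IV, 602110 to 602139, plus strand): ctttaatacaaacttattaatgtgctctcc
HHT2 (chromosome XIV, 575390 to 575419, minus strand): tataataattatcAATAAAcatcattttcg
Of the 7 windows only that of HHT2 held any of them, AATAAA. Among the 477 genes 9.85% held AATAAA in this window, and among all measured genes 9.14%. TATATA stood in 5.45% and 5.57%, and the A run in 7.76% and 8.02%. The shares were lower in the long genes for TACATA, with 2.1% and 3.15%, and for TATGTA, with 1.68% and 2.77%, on 10 and 8 long genes. In the longer window of 100 nt before the site TATATA stood in 44.2% and 47.8%, so 30 nt leaves most of these out.

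The medians over the 477 genes started at 250 nt and had a median of 331 nt and quartiles of 278 and 414 nt. The other 4151 measured genes had a median of 113 nt and quartiles of 84 and 151 nt. Most of the long group lay close to the threshold: 177 genes were below 300 nt, 165 from 300 to 400 nt and 60 from 400 to 500 nt. Only 75 genes (15.7%) reached 500 nt and 13 (2.73%) reached 1000 nt. NPL3, NFU1 and HHT2 stood just inside at 250 nt, and YDL241W, BCP1 and YER034W just outside at 249 nt, so the boundary divides a continuous range. The histogram of medians shows no gap there.

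**Figure D1:**
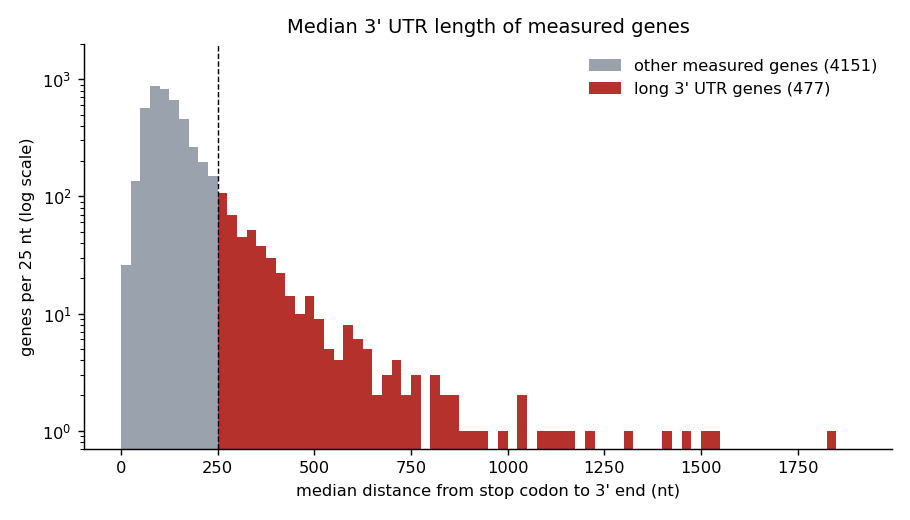
Number of measured genes by median distance from stop codon to 3' end, in steps of 25 nt, on a log scale of genes; the dashed line is the threshold of 250 nt. The 477 long 3' UTR genes form the falling tail of a distribution that is continuous across the threshold.

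The genes took 6.46% of the reads that cover a single coding sequence in the standard glucose column and 8.06% in the standard galactose column. In the long-enriched columns the shares were 7.57% and 8.70%. The 4 capped columns held from 2745847 to 6425269 reads. A gene of the group had a median of 256 reads, against 464 for the other genes, and 48 genes had fewer than 50. The coding sequences were slightly shorter than in other genes, with a median of 1026 against 1185 nt. The 5' UTR median was 57 against 45 nt. A near-identical copy elsewhere in the genome, which makes counts uncertain, exists for 6 of the genes, among them RPL8A, PMP1 and PMP2.

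The longest 3' UTRs belonged to genes of low read number. In some of these genes only the long-enriched columns had a long median, and in others all columns did. SGF29, a subunit of the SAGA histone acetyltransferase complex (YCL010C, chromosome III, 103571 to 104350), had a median of 46 nt in both standard columns, from 25 and 23 reads. In the long-enriched columns its medians were 1463 and 1470 nt, from 109 and 87 reads. SDS3, a subunit of the Rpd3 histone deacetylase complex (YIL084C, chromosome IX, 202276 to 203259), had medians of 118 nt in the standard columns and 1129 nt in the long-enriched ones, in both media. In SGF29 and SDS3 the medians differed between the kinds of library by over 1000 nt and between the media by at most 7 nt. The shares of the sites of SGF29 differed more between the media. In its long-enriched columns the site at 1470 nt took 41.3% of reads in glucose and 72.4% in galactose. A site at 651 nt took 37.6% and 10.3%. The interval of the pooled median was correspondingly wide for SGF29, from 651 to 1465 nt. In SGF29 75.8% and in SDS3 63.8% of the counted reads ended inside a coding sequence of the same strand. Of all reads covering SGF29 and SDS3, 53.8% and 42.7% also covered a further coding sequence.

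CTF19, a component of the kinetochore (YPL018W, chromosome XVI, 517651 to 518760), was long in every column. Its medians were 1158.5 and 1160 nt in the standard columns, from 4 and 3 reads, and 1158 and 1155 nt in the long-enriched ones, from 49 and 80 reads. YCR095W-A, a short annotated gene, lay between 1401 and 1407 nt in all 4 columns. For both the few standard reads had the same median as the long-enriched ones to within 10 nt. Further genes above 1100 nt included NUT2 at 1538 nt, RIM9 at 1523 nt, GPI19 at 1311 nt, YOR316C-A at 1201 nt and ATG29 at 1127 nt, with 24 to 107 reads each. NUT2 had standard medians of 1598 nt in glucose (2 reads) and 152 nt in galactose (4 reads). RIM9 had 475 nt in standard galactose (6 reads). Counted reads ended inside a same-strand coding sequence in 100% (NUT2), 97.2% (RIM9), 96.7% (GPI19) and 92.6% (YOR316C-A). Of all reads covering GPI19 and YOR316C-A, 60.5% and 72.4% also covered a further coding sequence.

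**Figure D2:**
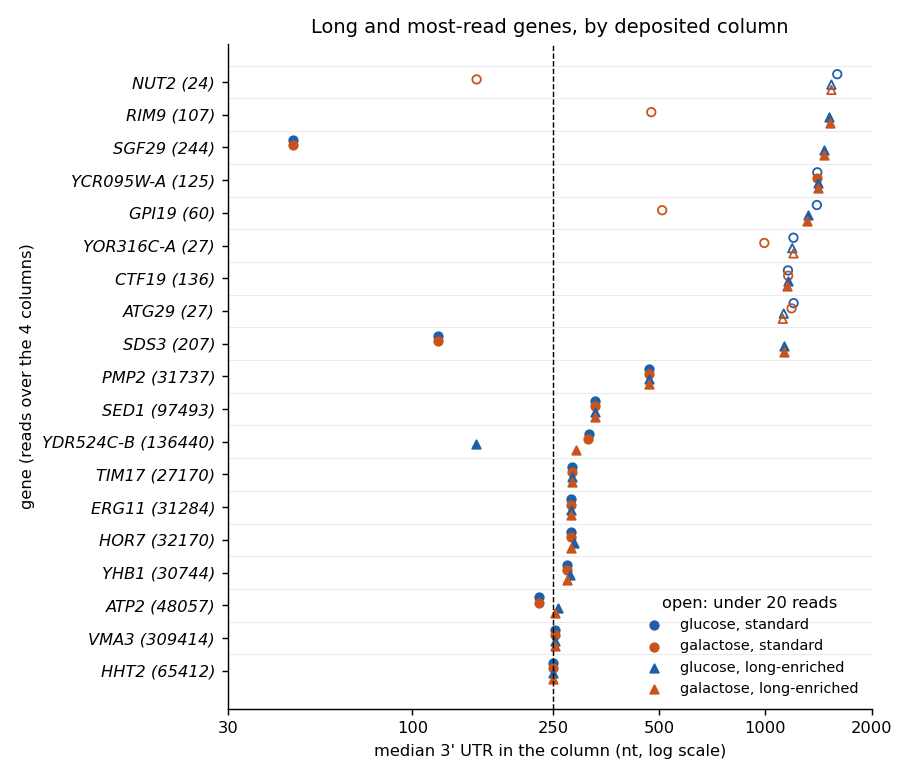
Median 3' UTR length in each deposited column (log scale) for 9 of the longest genes and the 10 with the most reads; circles are standard and triangles long-enriched libraries, and open symbols rest on fewer than 20 reads. The columns coincide for most highly read genes, whereas SGF29 and SDS3 are far shorter in the standard libraries.

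The 10 genes with the most reads had shorter 3' UTRs, and most of them had nearly the same median in all columns. VMA3, the proteolipid subunit of the vacuolar proton pump (YEL027W, chromosome V, 100769 to 101251), had 138045 and 142329 reads in standard glucose and galactose and 14814 and 14226 in the long-enriched columns. Its median was 253 nt in all 4, and 96.9% of reads ended at a single site. PMP2, a small proteolipid that regulates the plasma membrane proton pump (YEL017C-A, chromosome V, 122798 to 122929), had a median of 467 nt in all 4 columns with 96.1% of 31737 reads at 1 site. SED1, an abundant cell wall glycoprotein, had 329 nt in every column from 97493 reads. TIM17, a channel subunit of mitochondrial import, had 284 nt in every column, though its reads were spread over sites at 300, 284 and 201 nt. YDR524C-B differed between the protocols, with medians of 317 and 314 nt in the standard columns and 151 and 290 nt in the long-enriched ones, and ATP2 did so by less, with 228 nt in both standard columns and 258 and 254 nt in the long-enriched ones.

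Ribosomal protein genes were nearly absent. Of 135 measured cytosolic ribosomal protein genes 3 were long (2.22%), and of 63 mitochondrial ones 0. RPS28B, a small-subunit protein whose 3' UTR is known to bind the decapping factor Edc3 in autoregulation (YLR264W, chromosome XII, 673131 to 673334), was read 2868 times in standard glucose, 3484 times in standard galactose, and 697 and 998 times after enrichment for long mRNAs. Its median was 646 nt in all 4 columns, and 94.5% of reads ended there. RPL8A had 384 and 407 nt in the standard and 491 nt in both long-enriched columns. RPL6B lay at 262 nt with sites at 157, 262 and 307 nt that each held from 23.6% to 25.6% of reads. RPL8A has a near-identical copy, so its count is uncertain.

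Regulators of transcription were frequent among the long genes. Of 90 measured transcription factors 23 were long (25.6%), beside 10.3% of all measured genes. CBF1, a helix-loop-helix factor of centromeres and sulphur metabolism, had a median of 586 nt in all 4 columns from 71, 161, 506 and 1049 reads. HAC1, the unfolded-protein-response factor whose 3' UTR is known to direct its mRNA to the kinase Ire1, had 414 nt in all 4, from 46 to 486 reads. That distance counts from the stop codon of the annotated spliced coding sequence. The data give only the ends of molecules, so whether these were spliced is unknown. HAP4, the activator subunit of the Hap complex of respiratory genes, had a median of 354 nt with a second site at 141 nt that took 31% of reads. The others included INO2 at 616 nt, ARG80 at 457 nt, AFT2 at 383 nt, HMS2 at 371 nt, MCM1 at 330 nt, MSN4 at 327 nt and STE12 at 304 nt. By annotation term, sequence-specific DNA binding had 18 of 78 measured genes (23.1%) and positive regulation of transcription by RNA polymerase II 35 of 169 (20.7%). Negative regulation of transcription by RNA polymerase II had 17 of 112 (15.2%), while regulation of transcription by RNA polymerase II without a direction had 5 of 76 (6.58%) and chromatin binding 6 of 73 (8.22%).

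Cell wall and surface proteins formed another large share, 14 of 59 (23.7%). Beside SED1 they included HSP150 at 314 nt, SIM1 at 331 nt, DSE1 at 341 nt, SCW4 at 315 nt and ECM33 at 300 nt. ECM33 (chromosome II, 393123 to 394742) had no dominant end: its 11117 reads used sites at 161, 300, 355, 476 and 500 nt, none with more than 13.8%. Proteins annotated as uncharacterized were long in 55 of 243 cases (22.6%). The RNA-binding list had 7 of 41 (17.1%), with WHI3 at 687 nt, SRO9 at 573 nt, DHH1 at 440 nt and NAB3 at 408 nt.

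Protein kinases, plasma membrane transporters, cell cycle regulators, glycolysis and the proteasome were near or below the share of all measured genes. Protein kinases had 7 of 72 (9.72%), with CKA1 at 351 nt and MCK1 at 340 nt. Plasma membrane transporters had 6 of 68 (8.82%), among them the proton pump PMA1 at 492 nt, which had medians of 492, 495, 495 and 490 nt in standard glucose, standard galactose, long-enriched glucose and long-enriched galactose. Cyclins and cell cycle regulators had 2 of 37 (5.41%), the G1 inhibitor WHI5 at 841 nt and the mitotic cyclin CLB2 at 274 nt. Glycolysis and fermentation had 1 of 21 (4.76%), PYK2, and the proteasome 0 of 33. Of 3 measured genes from the list of reported long 3' UTRs and nonsense-mediated decay, COX19 was long, and of 6 with reported alternative poly(A) sites, SUA7 at 277 nt. COX19, a copper protein of cytochrome oxidase assembly (YLL018C-A, chromosome XII, 108676 to 108972), had 607, 607, 611 and 607 nt in the columns in the order just given, from 630 to 3490 reads. By annotation term the lowest shares were mitochondrial translation, 0 of 86, the large-subunit preribosome, 0 of 57, and structural constituent of ribosome, 3 of 187 (1.60%).

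Long 3' UTR genes used more poly(A) sites than other genes. Ends within 10 nt of a more used end were merged into a site, and the number expected among 20 reads was computed, which makes genes of unequal depth comparable. The median was 5.07 sites for the long genes and 3.73 for the others. Of the long genes 221 (46.3%, interval 41.8 to 50.9) had 3 or more sites with at least 10% of the reads each, against 31.8% of other genes. The leading site took 50% or more of the reads in 50.9% of the long genes and in 72.6% of the others. These counts come from the same 3' ends as the rule. YPL257W, NTA1 and TDA11 had the most sites, 11.5, 11.4 and 10.9 among 20 reads. ASI2 and YPL162C followed with 10.8 each.

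A site below 250 nt took at least 10% of the reads in 178 of the long genes (37.3%) and in all of the others, a difference that the rule itself makes. ERG11, the lanosterol demethylase of ergosterol synthesis, had 59.4% of 31284 reads at 282 nt and 36.1% at 14 nt. ATP2, the beta subunit of the mitochondrial ATP synthase, had 41.2% at 258 nt and 39.9% at 228 nt. PYK2, a pyruvate kinase of cells without abundant glucose, had its most used site at 56 nt, with 23.9% of reads, and sites at 413 and 598 nt. At the other end RTS1 ended at 1 site in all 123 counted reads, and RGM1, YOR012W, RLI1 and PMP1 had from 97.9% to 99.3% of counted reads at 1 site. The rule left out 189 further reads for RTS1, 115 for RGM1 and 6975 for PMP1, which also covered another coding sequence. For YOR012W and RLI1 such reads numbered 0 and 1.

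**Figure D3:**
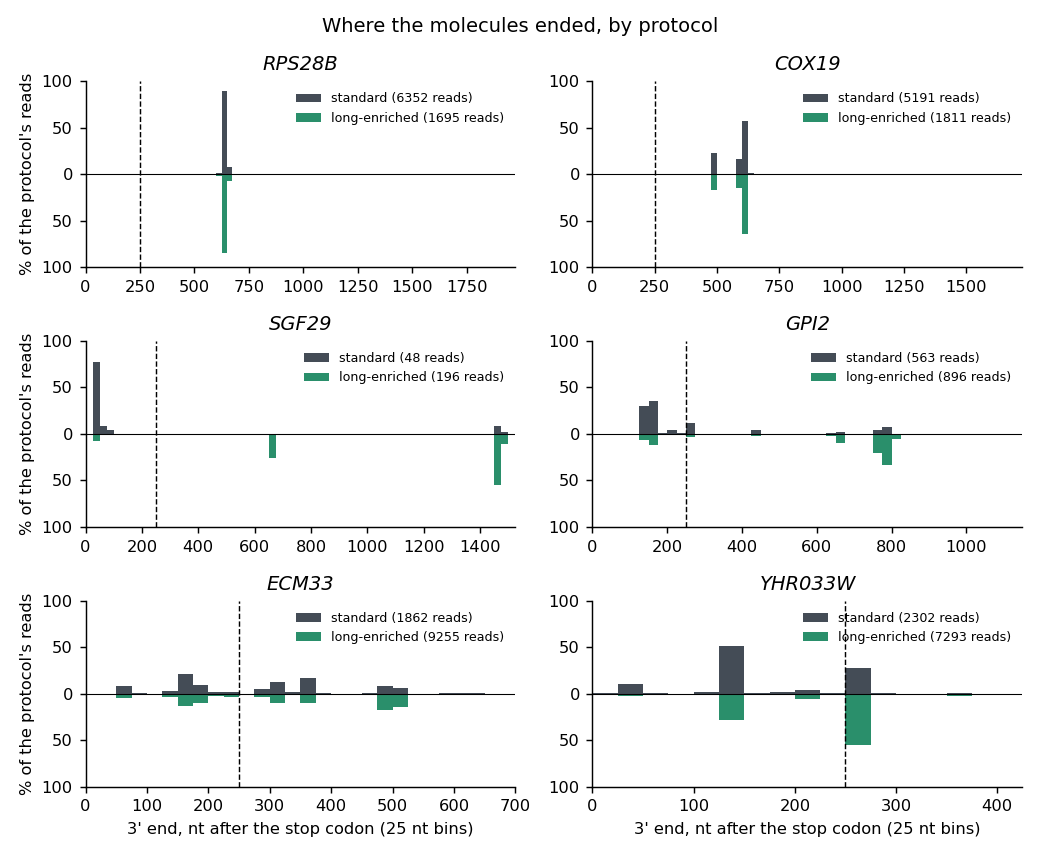
Share of a protocol's reads by 3' end position in bins of 25 nt after the stop codon, media summed, with standard libraries above and long-enriched libraries below the axis. RPS28B has 1 site in both protocols, COX19 a pair of clusters beyond 450 nt, ECM33 many sites, and SGF29, GPI2 and YHR033W shift weight from a near to a far site in the long-enriched libraries.

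The long-enriched libraries gave longer 3' UTRs for a subset of the genes. With 20 or more reads in all 4 capped columns, 224 of the genes could be compared, and 190 of them (84.8%) were at 250 nt or more in every column. The median was longer by 20 nt or more in the long-enriched column in both media for 30 (13.4%), beside 4.54% of the 2666 genes so compared in all. It was shorter for 3 (1.34%), beside 0.9%: NCE102, KES1 and YDR524C-B. The long-enriched libraries entered the rule, so a gene can be in the group because of them. Of 340 genes with 20 reads per protocol, 35 had a standard median below 250 nt, and all 35 were at or above it in the long-enriched libraries.

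The size of the difference ranged from a switch between distant sites to a small drift. GPI2, an enzyme of GPI anchor synthesis (YPL076W, chromosome XVI, 410443 to 411285), had medians of 171 nt in both standard columns, from 226 and 337 reads, and of 770 nt in both long-enriched columns, from 419 and 477 reads. Its site at 783 nt took 11.1% and 4.15% of standard reads in glucose and galactose and 38% and 29.8% of long-enriched reads. USE1, a SNARE of Golgi-to-ER transport, went from 277.5 and 282 nt to 967 nt in both media. PIL1, the core eisosome protein, went from 146 and 148 nt to 274 and 269 nt with 1142 or more reads in every column. PTC3, a protein phosphatase, went from 269 nt to 395 and 393 nt. ATP2 moved by 30 and 26 nt. These genes were picked after their values were seen. Cultures overlap between the protocols, and whether molecule length in the library preparation set the differences was not tested.

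The length held in molecules that the rule did not use. Among capped molecules that begin inside the coding sequence and run past the stop codon, 394 of the genes had 20 or more reads. The median was 250 nt or more in 381 (96.7%, interval 94.4 to 98.2), beside 10.1% of all 4187 genes so measured and 1.06% of the genes outside the group. It lay within 20 nt of the rule's median in 326. These reads come from the same libraries. Among molecules without a cap, 328 genes had 20 or more reads and 279 were at 250 nt or more (85.1%, interval 80.7 to 88.7), beside 9.06% of all 3798 genes so measured and 1.87% of the genes outside the group. Within 20 nt lay 235.

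Individual genes showed the same. RPS28B had 646 nt, CBF1 586 nt, MRH1 482 nt, PMP2 467 nt and HAC1 414 nt in all 3 kinds of molecule. Others were shorter without a cap than under the rule, whose medians include the long-enriched columns. SGF29 had 46 nt without a cap and 1470 nt when starting inside, and PYK2 135 and 598 nt. YHR033W was short in both, with 135 and 137.5 nt. YDR524C-B had 147 nt without a cap and 317 nt when starting inside. In the standard capped columns alone, media pooled, SGF29 had 46 nt and YHR033W 135 nt, the same as without a cap. PYK2 had 238 nt there and YDR524C-B 317 nt. The non-capped columns hold 1 library each, from a culture that also gave standard libraries used in the rule.

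**Figure D4:**
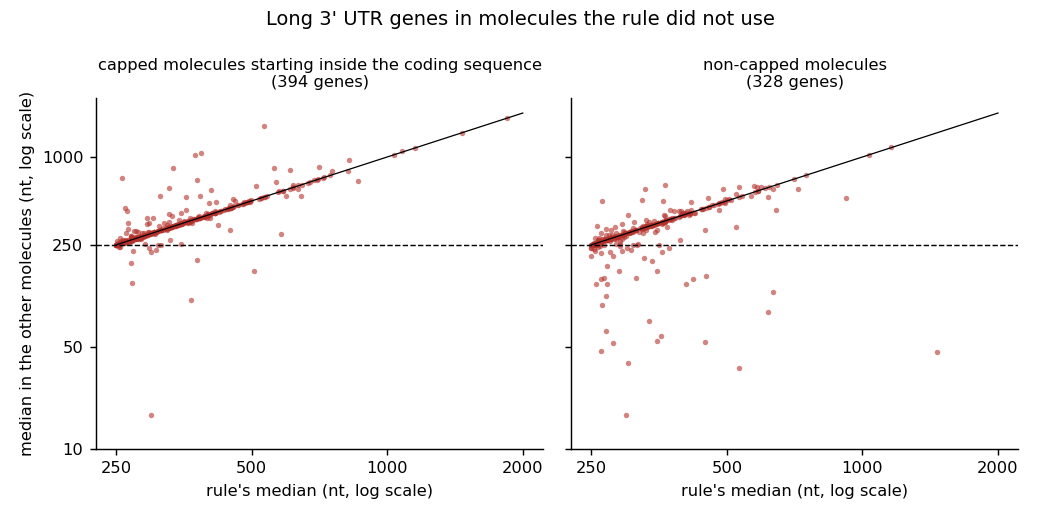
Median 3' UTR of each gene under the rule (horizontal, log scale) against its median in capped molecules that start inside the coding sequence (left, 394 genes) and in non-capped molecules (right, 328 genes); the solid line is equality and the dashed line 250 nt. Most points lie on the line of equality, and 49 non-capped and 13 inside-start medians fall below 250 nt.

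Few of the lengths differed between the media. Of the 224 genes 0 were longer in galactose by 20 nt or more in both protocols, beside 0.15% of all 2666 genes so compared, and 5 were shorter (2.23%), beside 1.16%. The 5 were ASI2, ALD5, OCH1, RPB9 and YKL068W-A. ALD5, a mitochondrial aldehyde dehydrogenase (YER073W, chromosome V, 304030 to 305592), had medians of 270 nt in standard glucose (93 reads), 223.5 nt in standard galactose (32 reads), 273 nt in long-enriched glucose (1192 reads) and 161 nt in long-enriched galactose (423 reads). In the long-enriched columns its site at 273 nt took 62.9% of reads in glucose and 43.7% in galactose, and its site at 109 nt 27.4% and 42.1%. The intervals of these long-enriched medians, 273 to 273 nt and 109 to 207 nt, did not overlap, while those of the standard medians did. ASI2, part of the Asi ubiquitin ligase of the inner nuclear membrane, went from 448 to 298 nt and from 570 to 465 nt on 54 to 94 reads per column. OCH1, the initiating mannosyltransferase of the Golgi, went from 314 to 282 nt and from 343 to 292 nt. Apart from ALD5 in the long-enriched columns, the intervals of glucose and galactose overlapped for all 5 genes. The count also depended on the measure: only 1 of the 5 was among the 14 genes called with means in place of medians.

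The level of the genes was compared between media with reads scaled by the trimmed mean of M values, and a gene was called when it differed 2-fold or more in both protocols with both intervals excluding a ratio of 1. The pseudocount for log2 ratios was 0.5 reads. Of 340 genes measured, 33 were higher in galactose (9.71%), beside 6.45% of all 3581 measured genes, and 5 were lower (1.47%), beside 2.51%. The median log2 ratio was 0.11 in the standard columns, against 0.02 over all genes. In the long-enriched columns it was 0.045, against 0.009. In bulk cultures a change in RNA per cell and in the share of cells that make it cannot be told apart.

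Respiratory genes made up a large part of those that were higher. Of 39 measured subunits of the respiratory chain and ATP synthase, a list assembled after the values were seen, 12 had long 3' UTRs (30.8%), and all 12 were called higher in galactose. So were 38 of all 39, so the higher level was shared with the respiratory genes of ordinary 3' UTR length. RIP1, the Rieske iron-sulphur protein of complex III with a median of 403 nt (chromosome V, 107260 to 107907), was read 150 times in standard glucose and 1510 times in standard galactose, with 69 and 640 reads in the long-enriched columns. Its log2 ratios were 2.86 and 2.68. NDI1, the internal NADH dehydrogenase with 361 nt, had 29 and 154 standard and 209 and 1975 long-enriched reads, with log2 ratios of 1.93 and 2.72. QCR9, a small subunit of complex III with 358 nt, had 2.24 and 1.47, and COX4, a subunit of cytochrome oxidase with 284 nt, 2.12 and 3.16. Over the 12 genes the ratios ran from 1.41 to 2.98 in the standard and from 1.22 to 3.24 in the long-enriched columns.

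The 5 largest standard ratios were of genes outside this list of subunits. YHR033W, a gene of unknown function (chromosome VIII, 175548 to 176819), went from 4 reads in glucose to 2298 in galactose in the standard columns and from 85 to 7208 in the long-enriched ones. Its log2 ratios were 8.53 and 5.88. Its 3' ends in galactose were split between 135 nt, with 49.7% of standard and 27.5% of long-enriched reads, and 272 nt, with 27.6% and 55.7%. GUT2, the mitochondrial glycerol-3-phosphate dehydrogenase, went from 3 to 102 and from 43 to 742 reads, with log2 ratios of 4.41 and 3.57. GIT1, a glycerophosphoinositol permease, NCA3 and the stress gene DDR2 had standard log2 ratios of 4.33, 3.97 and 3.60 on 1 to 15 standard reads in glucose. PYK2, the long-UTR gene of glycolysis, was 2.74-fold higher (interval 1.89 to 4.08) in the standard and 2.24-fold higher (1.99 to 2.52) in the long-enriched columns.

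The 5 lower genes were TPO1, YJL047C-A, ALD5, MRH1 and PMP2. PMP2 went from 16745 reads in glucose to 10183 in galactose in the standard columns, a ratio of 0.441 (interval 0.430 to 0.452), and a long-enriched ratio of 0.365 (0.344 to 0.388). With scaling by total reads its standard log2 ratio was -0.72 in place of -1.18, less than 2-fold, and its call was lost. MRH1, a membrane protein related to Hsp30, had ratios of 0.352 and 0.422, and ALD5 0.250 and 0.247. TPO1, a polyamine transporter, went from 20 to 2 reads in the standard columns and from 165 to 35 in the long-enriched ones. PMP2 had a median of 467 nt in both media, and MRH1 had 448 nt in glucose and 454 nt in galactose in the standard columns and 482 nt in both media in the long-enriched ones.

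**Figure D5:**
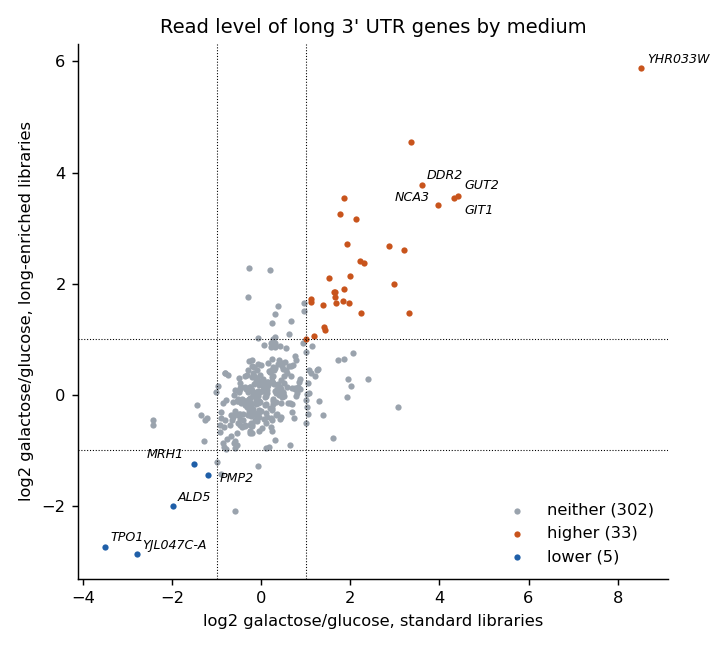
Log2 ratio of galactose over glucose reads after trimmed-mean scaling in standard (horizontal) and long-enriched libraries (vertical) for 340 long 3' UTR genes; dotted lines mark 2-fold. The 33 genes called higher and 5 called lower lie in the upper right and lower left, with YHR033W farthest out.

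The next coding gene lay farther away from the long genes than from the others. The distance from the stop codon to the next coding sequence had a median of 494 nt, against 286 nt. Only coding sequences lying wholly past the stop codon were considered, so a neighbour that overlaps the gene's end was passed over. CTF19 was thus given SWI1, 2253 nt away, although its reads ended inside a coding sequence of the other strand. A next coding sequence within 250 nt was found for 12.4% of the long genes and 40.7% of the others. The next coding gene was on the same strand (tandem) for 241 (50.5%, interval 45.9 to 55.1), against 46.1% (44.6 to 47.7) of the others, and these intervals overlap. The rule sets aside any molecule that covers a second coding sequence of its strand, so a tandem neighbour limits the length that can be counted.

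In 70 long genes (14.7%) 50% or more of the reads ended inside a coding sequence of the other strand, against 9.61% of other genes. That share grows with the length the rule chose. CTF19 had all of its 136 ends inside a coding sequence of the other strand. In TIM17 the share was 68.1%, with IRC9 as the convergent neighbour, and in YHB1 92.3%, with MIC26. In 9 genes (1.89%) 50% or more of the reads ended past the far end of the next coding gene, against 0 of 4151 other genes, a share that grows with the length the rule chose. In RPS28B 99.3% of the reads passed the small convergent gene YLR264C-A, and in YDR524C-B 80.4% passed YDR524W-C. The others included LIF1 past MF(ALPHA)2, RSA1 past PRM3 and TOP3 past YLR236C.

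In 31 long genes (6.50%) 50% or more of the counted reads ended inside a coding sequence of the same strand, against 0.747% of other genes. That share, too, grows with the length the rule chose. In 11 of the 31 the counted molecules were a minority, since over 50% of the reads that cover the gene were on molecules that also cover a further coding sequence. Over all long genes, 36 (7.55%) had 10% or more of their covering reads on such molecules, against 2.55% of the others. WHI5 had 81 counted reads, all ending inside LPX1, and 392 reads that covered a second coding sequence as well. RTG1, a factor of retrograde signalling with a median of 1047 nt, had 107 counted reads and 1265 that also covered another coding sequence. PMP1 had 144 counted reads, all ending inside YCR024C-B, and 6975 that covered a second coding sequence, 98% of the total. NUT2, RIM9 and RTS1 had 89.1%, 60.2% and 60.6%. The medians of such genes therefore describe only molecules that stop short of the neighbour's stop codon. FZF1 had 183 counted reads, 71% of them ending inside HXK2, and 0 that covered a second coding sequence.

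The genome after the leading site was searched for stretches of A, at which an oligo-dT primer can anneal inside a transcript. At least 7 A in the next 10 bases stood after the leading site of 56 long genes (11.7%) and of 11.9% of the other genes. Among the named genes 5 had 9 or 10 A, shown as the 10 bases that follow the site.
SDS3, site at 118 nt: aaaaaaaaaa
COX19, site at 617 nt: aaaaaaaaaa
RGM1, site at 442 nt: aaaaaaaaaa
MRH1, site at 482 nt: aaaaaaaaga
NUT2, site at 1538 nt: aaaaaaagaa
Whether such priming set these ends was not tested. In COX19 the sites at 484 and 588 nt took a further 21% and 16.1% of the reads.

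The 250 nt after the stop codon, which most long molecules span whole, held fewer of the searched motifs than the same window of other genes. On the coding strand TATATA, an efficiency element, stood in 26.4% of the long genes and 59.1% of the others. TGTANATA, the site of Puf3, stood in 5.66% and 18.2%, and TGTANNTA, which contains every TGTANATA match, in 12.8% and 29.6%. AATAAA stood in 29.4% and 36.3%. The GC content of the window was 33.6% and 32.0% in the median. In the 100 nt before the leading site the shares were closer: 44.2% and 48.2% for TATATA, 9.64% and 13.9% for TGTANATA, and 16.6% and 21.1% for AATAAA. The windows lie differently against the poly(A) site in the groups, since the ends of the other genes fall inside the 250 nt.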

How the data were processed

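Yeast TIF-Seq libraries were analysed from the deposited table, whose rows are joined 5' and 3' ends and whose values are read counts that the authors pooled by library type, per the file headers. CASAVA, Novoalign 2.07.10 and genome build R64 are listed in the submitters' processing notes. The sources used here do not say whether duplicate reads were collapsed. The table has 2502656 pairs and 6 count columns, of which 0 were left out. Columns held from 1100551 to 6425269 reads; intervals are exact binomial, Poisson ratio or order-statistic intervals for counting error only.

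Reads were assigned to R64 coding sequences that they cover whole, and sites, neighbours, motifs and medians were computed with Python 3.11.15, numpy 2.4.6, pandas 2.3.3 and scipy 1.17.1. Near-identical copies were found with blastn 2.17.0 at 90% identity over 80% of the length. Ratios were scaled with edgeR 4.0.16 in R 4.3.3, with DESeq2 1.42.0 as an alternative, and figures drawn with matplotlib 3.10.9. The assignment and the shift call were tested on simulated data. The genes described, the gene lists and the rules were chosen with earlier results of these data known. Genes were named as the 10 longest, the 10 with most reads, the 5 most extreme by number of sites, medium shift or level in each direction, up to 4 per list, and 3 on each side of the threshold; genes outside this rule were picked after their values were seen, and 1 gene that the rule names is not reported here. Alternatives were other thresholds, minima, summaries, columns, scalings, motif windows and A-stretch definitions.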

Additional observations from a re-analysis of the deposited data

How the results depend on the processing

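No paired analysis was possible because the columns sum the libraries, and for the same reason leaving out each replicate in turn could not be run. The number of long genes was 820 with a threshold of 200 nt and 300 with 300 nt. Under the other alternatives it ran from 333 with the standard columns only, of which 325 were among the 477, to 570 when molecules starting inside the coding sequence were added. Length shifts between media numbered 5 in the main analysis, 1 at 50 nt, 2 with a minimum of 50 reads, and 14 with means, of which 1 was shared. The 30 genes longer in the long-enriched columns became 17 with a minimum of 50 reads and 52 with means, alternatives added after seeing the data. Genes lower in galactose numbered 9 with no minimum of reads, against 5; scaling by total reads gave 40 higher and 4 lower, without PMP2. The non-capped share at 250 nt or more was 80.28% in the galactose library alone. Sites per gene were 3.622 when merged within 25 nt and 6.985 among 50 reads, against 5.072. A-rich stretches followed 22.64% of leading sites at 6 of 10 bases, 6.499% at 8 of 10, and 5.66% with 6 A in a row. At this depth 224 of the 477 genes had the reads to be compared for a shift. The cause of these changes was not tested.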
